A study of Rattus norvegicus with 16 samples.

Results

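Genes of 7 enzymes that connect fat breakdown, ketone bodies and glucose synthesis were followed on the arrays of this study. They were Pck1, Fbp1 and G6pc of gluconeogenesis, Acat1 and Bdh1 of ketone body metabolism, Cpt1a of mitochondrial fat oxidation, and Pdk4, which restrains the use of pyruvate. They were chosen by gene name in the array design, and all their probes were taken: 8 probes for 7 of 26113 gene names, with G6pc measured by 2 probes and each of the others by 1. All 8 passed the filter on dim probes, as did 21174 of 30367 probes in all.

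Total RNA came from stomach and from the middle part of intestine, taken from suckling Wistar Han rats at day 21 of life (the labels say Wistar). OH rats were given obestatin, which is cut from the same precursor as ghrelin, by the enteral route at 250 nmol/kg body weight 2 times a day from day 14, and C rats were given saline solution in the same way. Each pairing of treatment and tissue had 4 arrays, 16 in all, and the groups are called C stomach and OH stomach, and C middle intestine and OH middle intestine. Each array carried the rat's tissue in the Cy5 channel and a common reference pool in the Cy3 channel, without a dye swap, and every level given here is the log2 ratio of the tissue to that pool. A ratio of 0 means a signal equal to that of the pool, and levels are not compared between probes. RNA came from homogenized tissue samples, so more cells of a type and more RNA per cell cannot be told apart. The methods do not name the layers of the wall that these samples held. Per the methods whole litters were given 1 treatment, 4 litters each, so litter is nested in treatment, and the litters of the rats on the arrays are not given in the sources used here. Whether the stomach and the intestine array of a given number came from the same rat is not given either. The p-values measure the spread between these arrays.

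When glucose is scarce or the diet is rich in fat, Cpt1a lets long-chain fatty acids into mitochondria, where they are broken down to acetyl-CoA. Acat1 joins and splits acetoacetyl-CoA, and Bdh1 interconverts acetoacetate and 3-hydroxybutyrate, the main ketone bodies. Pdk4 phosphorylates and inactivates pyruvate dehydrogenase, which spares pyruvate for glucose synthesis. Pck1, Fbp1 and G6pc catalyse steps of glucose synthesis, best known from liver and kidney and also found in small intestine.

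On each array 69.4% to 77.6% of the spots were well above background in Cy5, and arrays of the same group correlated across probes with Pearson's r between 0.707 and 0.943. Each group lay on a slide of its own, and the OH slides and the C slides were scanned on different days, so the effects of treatment, slide and day of scan cannot be told apart. The median raw Cy3 signal was 188 to 195 on the C arrays and 341 to 399 on the OH arrays. The tissue labels were checked with markers. In C rats 8 stomach mucosa genes averaged 3.04 ± 0.22 (SD, n = 4) on the stomach arrays and -3.88 ± 0.17 on the intestine arrays. The 8 enterocyte genes that passed the filter, of 9 listed, averaged -2.88 ± 0.11 on the stomach arrays and -0.18 ± 0.30 on the intestine arrays. Cdx1 among them went the other way, with 0.16 in C stomach and -0.21 in C middle intestine (limma adjusted p 0.0226). Anpep was lower in C stomach but did not pass (limma adjusted p 0.0895). The 8 genes of each list were well above background on all 4 arrays of the tissue they mark.

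The 3 gluconeogenic genes were higher in middle intestine than in stomach, by 1.95-fold to 5.48-fold in C rats and by 3.19-fold to 6.15-fold in OH rats. Pck1, the cytosolic phosphoenolpyruvate carboxykinase, was measured by a probe of 60 bases at chr3:164017597-164017656 (rn4, plus strand), and this probe is shown because every Pck1 value below rests on it.

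Pck1 probe: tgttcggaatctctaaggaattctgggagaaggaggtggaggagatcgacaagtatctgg

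In replicates 1 to 4, the log2 ratio of Pck1 was -4.07, -3.97, -4.12 and -4.17 in C stomach and -3.21, -2.66, -2.31 and -2.03 in C middle intestine. In the OH group it was -3.88, -4.06, -3.86 and -4.15 in stomach and -0.54, -1.78, -2.89 and -2.29 in middle intestine. Every intestine array lay above every stomach array. The stomach arrays were close to each other and the intestine arrays were spread, most widely in the OH group, where replicate 1 stood above the rest. Pck1 was 2.89-fold higher in C middle intestine than in C stomach, a log2 difference of -1.53 ± 0.37 (SE) for stomach minus intestine with an adjusted p of 0.00401. In the OH rats it was 4.33-fold higher in middle intestine, with a difference of -2.11 ± 0.37 and an adjusted p of 0.000407. An exact permutation test, two-sided, gave p = 0.0286 for both, the smallest value that 4 arrays against 4 allow.

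G6pc, the catalytic subunit of glucose-6-phosphatase, releases free glucose at the last step of the pathway. Its brighter probe, called probe 1 here, gave -3.75, -3.43, -3.87 and -3.82 in C stomach and -1.70, -1.18, -1.99 and -0.19 in C middle intestine. In the OH rats probe 1 gave -3.77, -3.44, -3.43 and -3.72 in stomach and -0.35, -1.75, -1.49 and -0.30 in middle intestine. The tissues did not overlap in either group of rats, and the intestine arrays again varied more than the stomach arrays. The difference, stomach minus intestine, was -2.46 ± 0.37 (SE) in C rats, 5.48-fold, with an adjusted p of 9.58e-05. In OH rats it was -2.62 ± 0.37, 6.15-fold, with an adjusted p of 5.82e-05.

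The dimmer G6pc probe, probe 2, gave -3.67, -3.22, -3.96 and -3.76 in C stomach and -2.78, -2.86, -3.05 and -2.06 in C middle intestine. In the OH rats it gave -3.60, -3.40, -3.31 and -3.84 in stomach and -1.19, -1.61, -2.63 and -2.01 in middle intestine. Its groups did not overlap between tissues. Its tissue difference was -0.97 ± 0.28 (SE) in C rats, with an adjusted p of 0.0118, and -1.67 ± 0.28 in OH rats, with an adjusted p of 0.000273. Both probes put G6pc higher in intestine and differed in size. In C rats the difference of probe 2 was -0.47 (adjusted p 0.0232) with normexp background correction and loess, and it had an adjusted p of 0.0531 after quantile normalization of the ratios.

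Fbp1, fructose-1,6-bisphosphatase, gave -4.58, -4.80, -4.34 and -4.49 in C stomach and -3.59, -3.39, -2.06 and -2.53 in C middle intestine. In the OH rats the values were -4.62, -4.12, -5.13 and -3.74 in stomach and -2.23, -1.64, -3.77 and -2.60 in middle intestine. The tissues did not overlap in C rats. In OH rats intestine replicate 3 lay just below stomach replicate 4. Within each group the mean of the 8 enterocyte genes put the intestine arrays in the same order as Fbp1. It was -0.56, -0.20, 0.17 and -0.14 in C rats and 0.33, 1.08, -0.82 and -0.00048 in OH rats. Over both groups together the order differed. The other gluconeogenic probes did not follow it. In OH middle intestine replicate 2, the highest for enterocyte genes, had the lowest ratio of G6pc probe 1, at -1.75. Pck1 and G6pc probe 2 were highest on replicate 1 there. The part of the enterocyte content in the Fbp1 values was not tested. Fbp1 was 3.17-fold higher in middle intestine in C rats, a difference of -1.66 ± 0.43 (SE) with an adjusted p of 0.00594, and 3.58-fold higher in OH rats, a difference of -1.84 ± 0.43 with an adjusted p of 0.00347. The exact permutation p was 0.0286 in C rats and 0.0571 in OH rats.

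**Figure D1:**
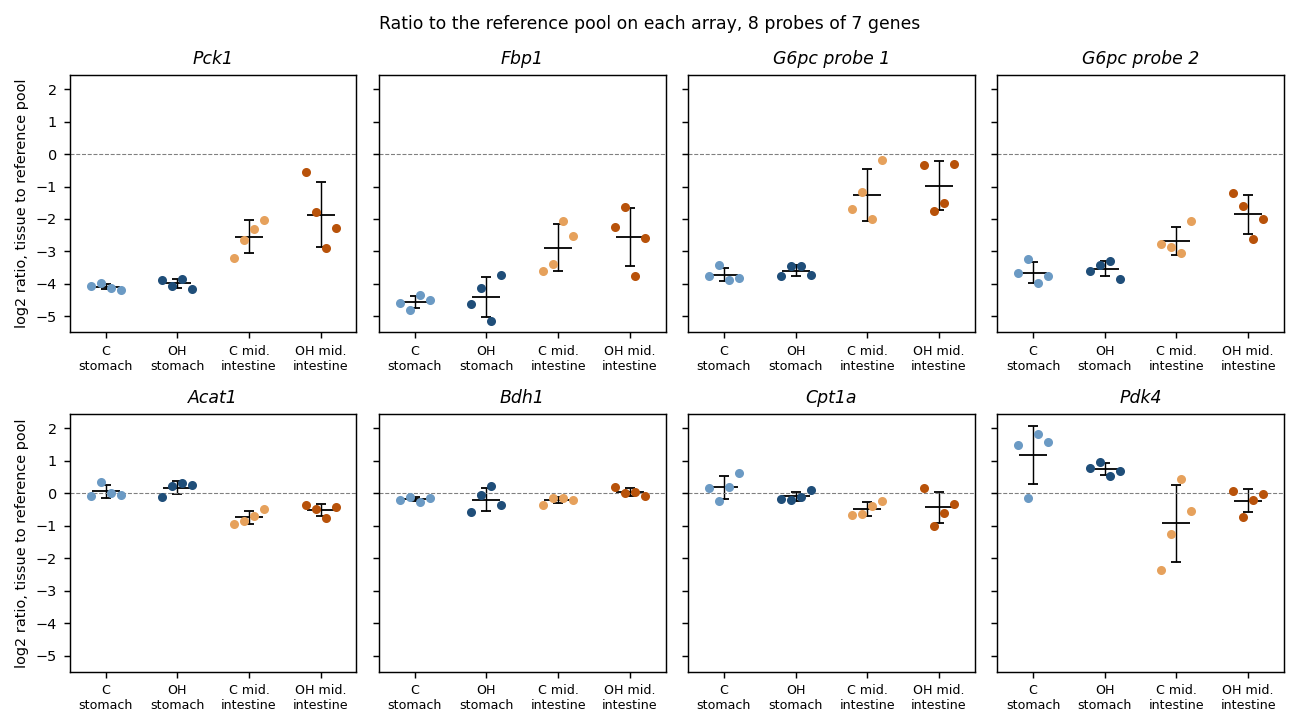
Log2 ratio of tissue to reference pool on each of the 16 arrays, in 1 panel per probe. Points are arrays in the order of replicates 1 to 4, horizontal bars are group means, error bars are SD (n = 4), and the dashed line marks a signal equal to the pool. Pck1, Fbp1 and both G6pc probes lie below the line on every array and lower in stomach, while Bdh1 stays near the line in all 4 groups.

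Of the 8 probes, 7 passed an adjusted p of 0.05 between C stomach and C middle intestine, where 44.9% of all probes tested passed. The 4 probes higher in intestine stood against a background of 22.3% in that direction, and the 3 higher in stomach against 22.7%. Between OH stomach and OH middle intestine 5 of 8 probes passed, where 38.2% of all probes did, 4 of them higher in intestine (19.1% of all probes) and 1 higher in stomach (19.2%). In each of these comparisons 5 of 8 probes had groups that did not overlap, against 43.7% of all probes in C rats and 35.2% in OH rats. The median size of the difference over the 8 probes was 1.25 on the log2 scale in C rats and 1.33 in OH rats, beside 0.44 and 0.38 over all probes tested. Both comparisons set 1 slide against 1 slide.

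The genes of ketone use and fat oxidation differed less between tissues, or were higher in stomach. Acat1, the mitochondrial acetoacetyl-CoA thiolase, gave -0.08, 0.36, 0.01 and -0.05 in C stomach and -0.95, -0.85, -0.68 and -0.49 in C middle intestine. In OH rats it gave -0.12, 0.24, 0.33 and 0.26 in stomach and -0.35, -0.49, -0.77 and -0.42 in middle intestine. The stomach arrays were all above the intestine arrays, with a narrow spread in all 4 groups. Acat1 was 1.74-fold higher in stomach in C rats (log2 difference 0.80 ± 0.15 SE, adjusted p 0.00046) and 1.61-fold higher in OH rats (0.69 ± 0.15, adjusted p 0.00181).

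Bdh1, 3-hydroxybutyrate dehydrogenase of mitochondria, was the member with the most even level. Its ratios ran from -0.59 to 0.22 over the 16 arrays, and both extremes were OH stomach arrays. Stomach minus intestine was 0.017 in C rats (95% confidence interval -0.29 to 0.32) and -0.24 in OH rats (-0.54 to 0.07), with adjusted p of 0.933 and 0.206. Without OH stomach replicate 3 the difference in OH rats was -0.37, with an adjusted p of 0.0312.

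Cpt1a, the liver-type carnitine palmitoyltransferase of the outer mitochondrial membrane, gave 0.17, -0.24, 0.19 and 0.63 in C stomach and -0.66, -0.63, -0.39 and -0.22 in C middle intestine. In OH rats it gave -0.16, -0.22, -0.11 and 0.11 in stomach and 0.16, -0.99, -0.59 and -0.32 in middle intestine. C stomach replicate 2 lay just below the highest C intestine array, and OH middle intestine replicate 1 lay above all OH stomach arrays. The difference was 0.66 ± 0.22 (SE) in C rats, 1.58-fold, with an adjusted p of 0.0254, and 0.34 ± 0.22 in OH rats, with an adjusted p of 0.246. The call in C rats was not held when single arrays were left out. The adjusted p was 0.0501 without C stomach replicate 3, 0.0858 without C stomach replicate 4, 0.0674 without C middle intestine replicate 1 and 0.0659 without C middle intestine replicate 2. It was 0.0532 with the Cy5 signal alone and 0.0827 by the Tukey's HSD of the study's methods.

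**Figure D2:**
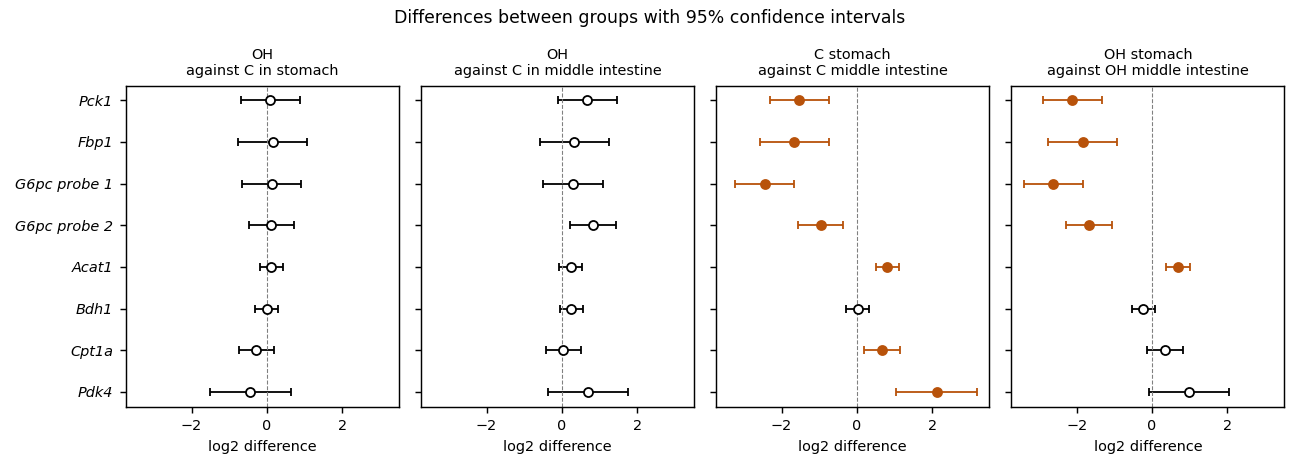
Log2 differences of the 8 probes in 4 comparisons, as the group named first minus the group named second. Points are estimates of the limma fit, bars are 95% confidence intervals, and filled orange points have an adjusted p under 0.05 over all probes. None is filled in the obestatin comparisons, 7 are filled between C tissues and 5 between OH tissues.

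Pdk4 was higher in stomach in C rats and was dim in C middle intestine. Its probe is shown because its 60 bases are placed over 1889 bases of the genome, chr4:30239150-30241038 (rn4, minus strand), and so join sequence from more than 1 exon.

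Pdk4 probe: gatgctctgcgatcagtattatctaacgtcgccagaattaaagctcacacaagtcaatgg

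Pdk4 gave 1.50, -0.14, 1.83 and 1.58 in C stomach and -2.36, -1.25, 0.44 and -0.53 in C middle intestine. In OH rats it gave 0.79, 0.97, 0.54 and 0.70 in stomach and 0.06, -0.73, -0.22 and -0.02 in middle intestine. C stomach replicate 2 stood far below the other C stomach arrays, and C middle intestine replicate 3 above the other arrays of its group. In C middle intestine the probe was well above background in all spots on 2 arrays. On replicate 1 it was not well above background, and on replicate 2 it was so in 1 of 2 spots, so these low ratios are near the limit of detection. The difference was 2.12 ± 0.50 (SE) in C rats, with an adjusted p of 0.00339 and an exact permutation p of 0.0571, and its size rests on these dim arrays. With normexp background correction and loess it was 0.99, with an adjusted p of 0.00308. In OH rats the tissues did not overlap, and the difference was 0.98 ± 0.50 with an adjusted p of 0.139. It had an adjusted p of 0.00533 when only the 8 OH arrays were fitted.

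In C stomach replicate 2 was the lowest array for Pdk4 and for genes of striated muscle, a tissue that also expresses Pdk4 strongly. The mean ratio of 7 striated muscle genes was 3.47, -1.17, 3.04 and 3.83 in C stomach. Among its other arrays replicate 3 had the lowest muscle mean and the highest Pdk4. In OH stomach the muscle list gave 1.15, -0.56, -0.49 and 0.84, and on the intestine arrays it lay between -0.69 and -0.24. At muscle list values of -0.56 and -0.49, OH stomach replicates 2 and 3 had Pdk4 ratios of 0.97 and 0.54, above all 8 intestine arrays, and replicate 2 had the highest Pdk4 and the lowest muscle value of its group. In C middle intestine Pdk4 ran from -2.36 to 0.44 while the muscle list stayed between -0.69 and -0.49. Without C stomach replicate 2 the difference between C tissues was 2.56, with an adjusted p of 0.000570. Of the striated muscle genes 7 of 9 passed the filter, and 6 of 7 were well above background on all C stomach arrays and 5 on all C middle intestine arrays. The mean of 5 adipocyte genes also differed between the C tissues, running from 0.35 to 1.05 on the stomach arrays and from -1.91 to -1.05 on the intestine arrays. C stomach replicate 2 was also the lowest of its group for adipocyte, smooth muscle, forestomach squamous, enterocyte and liver genes. It was the highest for stomach mucosa genes. The part of any of these tissues in the Pdk4 values was not tested.

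**Figure D3:**
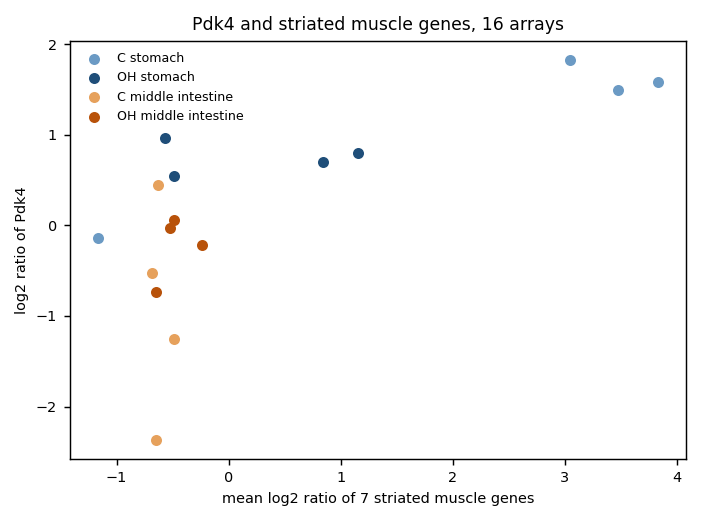
Log2 ratio of Pdk4 against the mean log2 ratio of 7 striated muscle genes on the 16 arrays, coloured by group. Of the C stomach arrays 3 lie at muscle values above 3 with Pdk4 at 1.50 to 1.83, and replicate 2 lies at -1.17 with Pdk4 at -0.14.

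Obestatin against saline gave no call among these genes. In stomach 0 of 8 probes passed, with 0% of all probes tested passing. The groups overlapped for all 8 probes, where those of 7.6% of all probes did not. No member had an unadjusted p under 0.05 there, where 10.6% of all probes did, and the smallest adjusted p was 0.685. The Tukey's HSD of the study's methods also called 0 of 8, and 3.35% of all probes. The differences, OH minus C, ran from -0.44 for Pdk4 (95% confidence interval -1.51 to 0.63) to 0.15 for Fbp1 (-0.76 to 1.07). The narrowest intervals were those of Acat1, 0.12 (-0.19 to 0.43), and Bdh1, -0.0053 (-0.31 to 0.30), so a change of Bdh1 beyond 0.31 in either direction lay outside its interval. For Cpt1a the difference of -0.28 joined a Cy5 signal higher by 0.29 and a reference signal higher by 0.57 on the OH slide. For all members except Pdk4 both channels were brighter on the OH stomach slide. Marker means also differed between the stomach groups. Striated muscle genes averaged 2.30 ± 2.33 (SD, n = 4) in C stomach and 0.23 ± 0.89 in OH stomach. In the same order smooth muscle genes averaged -2.15 ± 0.48 and -0.79 ± 1.62, and forestomach squamous genes 1.30 ± 0.66 and 0.57 ± 0.42. Their part in the differences between C and OH stomach was not tested.

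In middle intestine 0 of 8 probes passed, where 0.368% of all probes did. All 8 differences were positive, from 0.04 for Cpt1a (95% confidence interval -0.43 to 0.51) to 0.83 for G6pc probe 2 (0.23 to 1.43). The mean of the enterocyte genes was also higher in the OH group, at 0.15 ± 0.79 (SD, n = 4) beside -0.18 ± 0.30 in the C group, and its part in these differences was not tested. G6pc probe 2 was the member with an unadjusted p under 0.05, as 10.5% of all probes had, and its adjusted p was 0.259. G6pc probe 1, on the same transcript, differed by 0.29 (-0.50 to 1.08). Pck1 differed by 0.68 (-0.11 to 1.47) with an adjusted p of 0.584, and by 0.23 without OH middle intestine replicate 1, the array with the highest Pck1 ratio. That array had the highest ratio of its group for 6 of the 8 probes, while C middle intestine replicate 1 had the lowest of its group for 6 of 8. Bdh1 was the member whose groups did not overlap, against 5.86% of all probes, with C at -0.34, -0.14, -0.13 and -0.20 and OH at 0.20, 0.02, 0.05 and -0.08. Its difference was 0.25 (-0.05 to 0.55), with an exact permutation p of 0.0286 and an adjusted p of 0.599. Tukey's HSD called 0 of 8 members and 4.42% of all probes.

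The test of whether the response to obestatin differed between tissues called 0 of 8 members and 0% of all probes by limma, with no member and 5.85% of all probes at an unadjusted p under 0.05. The difference, stomach response minus intestine response, was below 0 for all 8 probes and ran from -1.14 for Pdk4 (95% confidence interval -2.65 to 0.38) to -0.12 for Acat1 (-0.56 to 0.32). These values are formed from the same arrays as the responses above. For Pdk4 they include the C middle intestine arrays on which its probe was dim. Its response of 0.70 in middle intestine joined a Cy5 signal higher by 0.08 and a reference signal lower by 0.61 on the OH slide. With normexp background correction and loess the difference between tissues for Pdk4 was -0.55.

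Pck1, Fbp1 and both G6pc probes were below the reference pool on all 16 arrays, which 6.04% of all probes were. The labels give the pool as RNA of stomach and middle part of intestine, and the methods as equal amounts from all rats. The ratio averaged over the 16 arrays on the linear scale was 0.158 for Pck1, 0.109 for Fbp1, 0.298 for G6pc probe 1 and 0.156 for G6pc probe 2. These lay between the percentiles 0.416 and 1.36 of all probes, whose median was 1.15. The other members had means of 0.875 for Acat1, 0.92 for Bdh1, 0.9 for Cpt1a and 1.45 for Pdk4.

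Liver genes had low ratios of the same kind. Of 6 liver markers 5 were below the pool on all 16 arrays, and their mean ratios were 0.0134 for Alb (albumin), 0.0306 for Ttr (transthyretin), 0.0478 for Fgb (fibrinogen beta chain), 0.104 for Apoh and 0.108 for Serpina1. The 6th, the brightest probe of Ahsg, was at 0.931. All 6 were well above background on all arrays in Cy5. The liver list averaged -3.88 ± 0.05 (SD, n = 4) on the stomach arrays and -3.93 ± 0.13 on the intestine arrays of C rats, and -3.61 ± 0.16 and -3.64 ± 0.11 on those of OH rats. The 5 pancreas markers had means between 0.0991 and 0.459, with 3 of 5 below the pool on all arrays. Of 8 enterocyte genes none was below the pool on all arrays, and their means ran from 0.48 to 1.46. The Cy5 signal alone was not divided by the pool signal, though it had passed the dye normalization of both channels. It gave 6 calls between tissues in C rats and 5 in OH rats, with the 4 gluconeogenic probes called higher in intestine in both. What set the level of these genes in the pool was not tested.

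**Figure D4:**
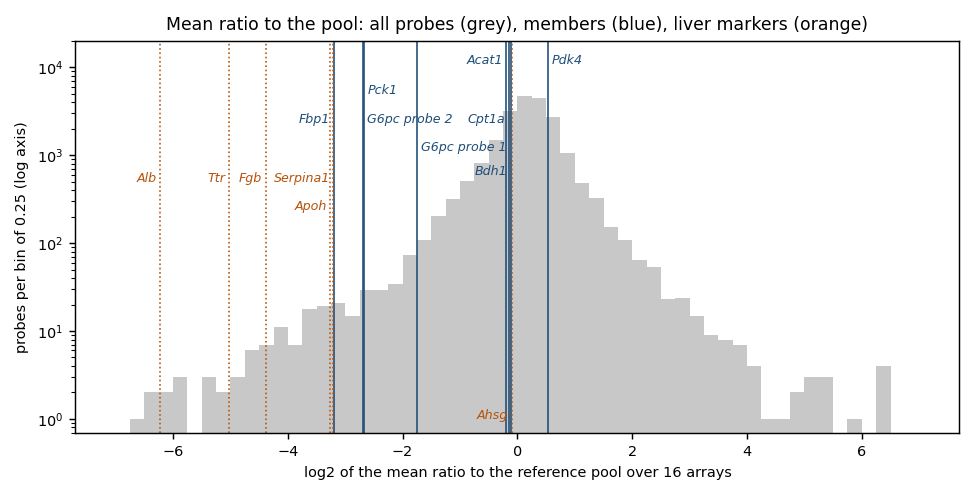
Distribution of the ratio to the reference pool, averaged over 16 arrays on the linear scale and shown as log2, for 21174 probes in bins of 0.25 on a log count axis. Blue lines are the 8 member probes and dotted orange lines the 6 liver markers. Pck1, Fbp1 and G6pc lie in the low tail at mean ratios of 0.109 to 0.298, near Apoh and Serpina1, and the other members lie in the main body.

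The promoters of Pck1 and G6pc are shown as the ones among the 7 members in which the search found a match. In the 250 bases before the start of each gene (RefSeq, GRCr8), both strands were searched for the PPAR direct repeat, its AGGTCA unit, the cAMP element TGACGTCA, its TGACG unit, the HNF4 site CAAAGTCCA, the FOXO site GTAAACA and the CDX site TTTATG. The shorter units overlap the longer motifs by construction. Capitals mark the matches. Pck1 is at chr3:182348322-182348571 on the plus strand and G6pc, named G6pc1 in RefSeq, at chr10:86807409-86807658 on the plus strand.

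Pck1 promoter: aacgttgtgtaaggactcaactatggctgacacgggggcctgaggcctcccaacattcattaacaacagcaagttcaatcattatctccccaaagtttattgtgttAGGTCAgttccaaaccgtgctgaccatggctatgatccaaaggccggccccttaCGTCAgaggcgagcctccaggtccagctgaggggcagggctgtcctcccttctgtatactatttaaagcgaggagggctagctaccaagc

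G6pc promoter: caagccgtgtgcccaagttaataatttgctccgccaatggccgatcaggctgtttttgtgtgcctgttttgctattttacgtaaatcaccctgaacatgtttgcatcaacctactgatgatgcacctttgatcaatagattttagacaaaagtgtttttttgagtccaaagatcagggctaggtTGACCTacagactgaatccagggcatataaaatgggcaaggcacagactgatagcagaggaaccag

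Counting back from the start, Pck1 held AGGTCA at -144 to -139 and the reverse complement of TGACG at -90 to -86. G6pc held the reverse complement of AGGTCA at -66 to -61. Of 33469 rat promoters of this length 14.1% held AGGTCA and 18.2% held TGACG. The longer motifs were in 0.0508% (PPAR repeat), 1.59% (cAMP element), 0.338% (HNF4) and 3.21% (FOXO), and the CDX site in 11.4%. A match is a stretch of letters, and no binding was measured.

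The other genes of these pathways were taken from lists of 102 genes, 96 of which passed the filter. Between C stomach and C middle intestine 55 of 96 passed, beside 44.9% of all probes, with 33 higher in stomach (22.7% of all probes) and 22 higher in intestine (22.3%). Between OH tissues 57 of 96 passed, beside 38.2% of all probes. In C rats the striated muscle genes averaged 2.30 ± 2.33 (SD, n = 4) in stomach and -0.61 ± 0.09 in middle intestine. The adipocyte genes averaged 0.80 ± 0.31 and -1.54 ± 0.41. Their part in the tissue differences of these lists, and in those of Acat1 and Cpt1a, was not tested. In both obestatin comparisons 0 of 96 passed by limma, with 7 in stomach and 9 in middle intestine at an unadjusted p under 0.05, where 10.6% and 10.5% of all probes were.

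Of 20 genes of gluconeogenesis 9 were higher in C middle intestine (22.3% of all probes) and 6 higher in C stomach (22.7%), with a median difference of -0.23 beside -0.01 over all probes. Slc2a2, the GLUT2 glucose transporter, was -6.01 ± 0.43 (SE), and Gpd1, glycerol-3-phosphate dehydrogenase, -2.46 ± 0.25. On the stomach side were Pc, pyruvate carboxylase, at 4.05 ± 0.22, Ldhb, the heart-type lactate dehydrogenase subunit, at 2.64 ± 0.22, and Gpt2, a mitochondrial alanine aminotransferase, at 2.53 ± 0.39. All 15 of these genes passed in the same direction in OH rats.

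Of 8 ketone body genes 6 were higher in C stomach (22.7% of all probes) and 1 lower (22.3%), with a median of 0.81. Slc16a7, a monocarboxylate transporter, was 3.09 ± 0.20 (SE) and its relative Slc16a1 was -1.12 ± 0.22. Bdh2 was 1.59 ± 0.27, and Oxct1, which activates acetoacetate for use as fuel, 1.03 ± 0.24.

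Of 26 genes of mitochondrial fat oxidation 11 were higher in C stomach (22.7% of all probes) and 2 lower (22.3%), with a median of 0.44. Acad11 was 1.88 ± 0.41 (SE), Eci1 1.80 ± 0.27, and Acadvl, the very-long-chain acyl-CoA dehydrogenase, 1.11 ± 0.21. Acsl5, an acyl-CoA synthetase, was -1.82 ± 0.26, and Slc25a20, the carnitine-acylcarnitine carrier that follows Cpt1a, -0.45 ± 0.13.

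The list of peroxisomal genes and PPAR targets also held Pdk1, Pdk2, Pdk3, Pdp1 and Pdp2, which regulate pyruvate dehydrogenase. Of its 18 genes 4 were higher and 4 lower in C stomach, shares close to the 22.7% and 22.3% of all probes. The median was 0.16. Fabp1, the liver-type fatty acid binding protein, was -4.58 ± 0.37 (SE), Vnn1 -2.52 ± 0.49 and the lipid droplet protein Plin2 -2.49 ± 0.37. Acot1 was 1.80 ± 0.60, Crot, the peroxisomal carnitine octanoyltransferase, 1.27 ± 0.26, and Pdp2, a phosphatase that reverses the action of Pdk4 on pyruvate dehydrogenase, 0.71 ± 0.22.

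Of 24 regulators 6 were higher and 6 lower in C stomach, shares close to the 22.7% and 22.3% of all probes, with a median of 0.09. Cdx2, the intestinal homeobox factor, was -6.89 ± 0.11 (SE), Creb3l3 -4.20 ± 0.16 and Cebpa -1.29 ± 0.22. Klf15 was 2.94 ± 0.32, Pparg, the factor of fat cells, 2.49 ± 0.28, and Foxo3 1.66 ± 0.38. Of the genes named in these lists, Acad11, Crot and Foxo3 did not pass in OH rats, with adjusted p of 0.0693, 0.0813 and 0.258.

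**Figure D5:**
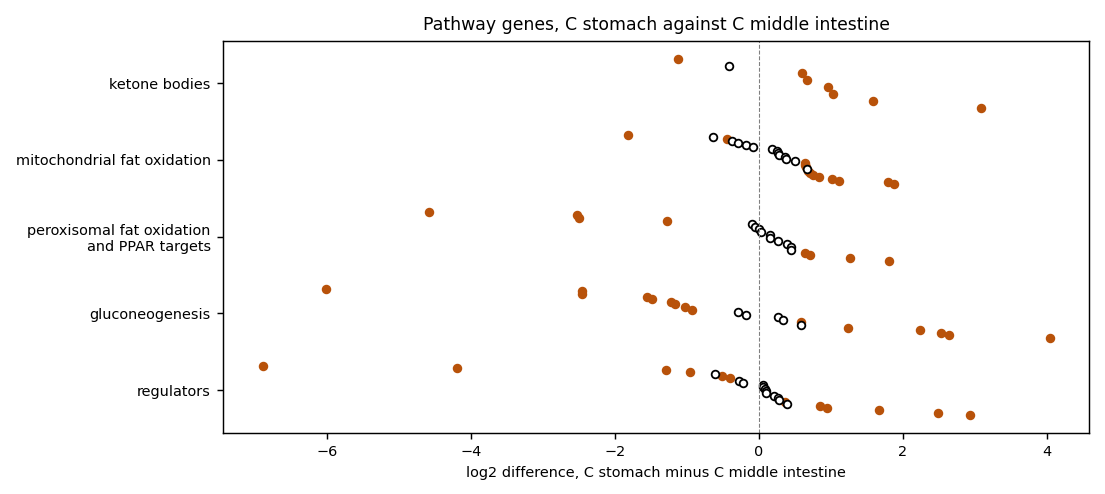
Log2 difference, C stomach minus C middle intestine, for 96 genes in 5 pathway lists. Each point is the brightest probe of a gene, spread vertically by rank, and filled orange points have an adjusted p under 0.05. The gluconeogenesis list reaches from -6.01 (Slc2a2) to 4.05 (Pc).

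Over the 16 arrays, which fall into the 2 tissues, the genes with ratios most like each member were found among 11308 named genes, and the correlation after removing the group means is given as a second value. Pck1 was closest to Slc22a5, the plasma membrane carnitine transporter, with Pearson's r of 0.98 and 0.96, and to Sfrp5 (0.97 and 0.87). Cpt1a was closest to Acot1, a cytosolic acyl-CoA thioesterase, with 0.93 and 0.91, and to Carhsp1 (0.90 and 0.83). Acat1 was closest to Smim7 (0.98 and 0.89) and Nt5e (0.97 and 0.92), and Fbp1 to Maob (0.95 and 0.84) and Snx1 (0.95 and 0.88). The probes of G6pc had different neighbours, Mab21l2 (0.97 and 0.82) and Rab30 (0.96 and 0.69) for probe 1, and Gramd1c (0.95 and 0.81) and Tmem144 (0.94 and 0.72) for probe 2. Pdk4 was closest to Trim34 (0.91 and 0.76) and Ttll1 (0.89 and 0.76). Bdh1, whose first values were the lowest, was closest to Pi4k2b (0.85 and 0.85) and Pcyt1a (0.83 and 0.78). These values describe the 16 arrays and carry no test.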

How the data were processed

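RNA of 16 tissue samples, 4 per group as the labels give them, had been hybridised to SurePrint G3 Rat GE 8x60K arrays against a common pool. For each array the authors deposited the Feature Extraction output, with processed intensities of both channels after background subtraction and dye normalization. Its headers name version 10.10.1.1 and the labels 10.7.3.1. A further deposited table, used as an alternative, holds the same ratios on the log10 scale.

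The intensity ratio of tissue to pool was put on the log2 scale. Control and outlier spots were left out, spots of a probe were averaged, and a probe was kept if some group had it well above background in Cy5 on each of its 4 arrays and every group had at least 3 values. A linear model with group as its factor was fitted to the 16 arrays by limma 3.58.1 (R 4.3.3), with Benjamini-Hochberg adjustment over 21174 probes and a threshold of 0.05. Single genes were also compared by exact permutation tests, two-sided (scipy 1.17.1). The fit was tested on simulated ratios with independent noise and no slide, day or litter effect, so that test cannot speak to such effects. The number of arrays limits the precision.

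The members and lists were chosen with earlier results of these data known. Named beside the members are, in each list, the 3 genes with the largest difference each way among those that passed between C tissues, and the 2 genes most like each member; 1 gene that the rule covers is not reported here. Lists use the brightest probe of a gene. Probe names and coordinates are those of the array design (rn4), and 13850 of 16240 accessions of probes kept were found in the RefSeq table of GRCr8. Alternatives covered background correction and loess, scaling, Cy5 alone, the log10 table, the filter, outlier spots, the arrays fitted, a replicate block, ANOVA with Tukey's HSD, several probes per gene and leaving out each array.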

Additional observations from a re-analysis of the deposited data

Results flagged for a closer look

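Pdk4 in C stomach was the result in which a single array stood apart from the rest of its group. The gap from replicate 2, at -0.14, to the next array was 0.832 of the range of the 4 arrays, just past Dixon's critical value at the 95% level. Of 32 groups examined, 8 probes in 4 groups, 1 stood out in this way, and 1.6 would by chance. The mean ratio of the striated muscle genes on the same array was -1.17, against 3.04 to 3.83 on the other C stomach arrays. That array was also the lowest of its group for adipocyte (0.35), smooth muscle (-2.67), forestomach squamous (0.43), enterocyte (-3.02) and liver (-3.95) genes. It was the highest for stomach mucosa genes (3.27) and neither for pancreas genes (-1.76). Whether any of these bears on Pdk4 was not tested.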

How the results depend on the processing

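The counts of members called stayed within 1.5 times their value under every alternative run. They were 0 in each obestatin comparison and in the difference between tissues, 6 to 7 of 8 between C tissues and 5 to 6 of 8 between OH tissues. The counts of the pathway lists were rerun under 1 alternative only, the mean over all kept probes of a gene. They too stayed within 1.5 times their value. Arrays of the same replicate number correlated with r of -0.12 to 0.32 between stomach and middle intestine. Between C and OH arrays, which are of different rats, r ran from -0.40 to 0.51. These values do not settle whether the same number marks the same rat. In 7 of 16 cases an array correlated best with its own number. A replicate block left 7 and 5 calls between tissues and 0 in the obestatin comparisons. With it Pck1 was -1.53 between C tissues, with an adjusted p of 0.00923.

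Differences that changed sign were all uncalled. With normexp and loess G6pc probe 2 was -0.20 in stomach (OH minus C). With Cy5 alone G6pc probe 1 was -0.0385 in stomach, Pdk4 -0.0807 in middle intestine and Acat1 0.0842 for the difference between tissues. Bdh1 between C tissues was -0.0100 after median centring and -0.0491 after quantile normalization, and Cpt1a in middle intestine -0.0254 after quantile normalization. Leaving out single arrays gave -0.14 to 0.13 for Bdh1 and -0.0676 to 0.40 for Fbp1 in stomach, -0.16 to 0.23 for Cpt1a in middle intestine, -0.0294 to 0.0421 for Bdh1 between C tissues, and -0.58 to 0.13 for Fbp1 and -0.52 to 0.0774 for G6pc probe 1 for the difference between tissues. The cause was not tested. No fit with slide as a block was possible, as each slide held 1 group.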
